A study of Homo sapiens with 6 samples.

Results

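The immediate early transcription factors FOS, FOSB, ATF3 and EGR1, with FOSL1, JUN, JUNB, EGR2 and EGR3 where the deposited table lists them, were followed in RKO cells, an established human colorectal carcinoma line, after 48 h of nutrient restriction. These 9 genes were chosen by name. The table lists 7 of them among its 3511 genes (FOS, FOSB, ATF3, EGR1, JUNB, EGR2 and EGR3), while FOSL1 and JUN are not listed and have no value here. Wild-type cells were kept in control medium with 10% fetal bovine serum and 4.5 g/L glucose (3 libraries) or in fasting medium with 1% serum and 1 g/L glucose (3 libraries), both with antibiotics, and the labels of these libraries name no drug. The treatment protocol in the labels gives the low-serum medium for all 6 samples and the growth protocol the high-serum one, so the groups follow each sample's own treatment label. Serum and glucose were lowered together, so their parts cannot be told apart. The labels do not say whether the 3 samples of a group were grown as separate cultures. The p-values therefore describe the scatter among these 6 samples, and that scatter may be technical.

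Immediate early genes are switched on by signals acting on factors already present in the cell, so that no new protein is needed first. Serum growth factors, acting through the ERK kinases, are the classical inducers in resting cells, and many kinds of stress act through the p38 and JNK kinases. At their promoters the serum response factor SRF binds the CArG box and CREB/ATF proteins bind the cAMP response element (CRE). FOS family proteins pair with JUN family proteins through their leucine zippers to form AP-1, ATF3 is a leucine zipper factor of the same superfamily that is also induced by ATF4 in the integrated stress response, and EGR proteins bind GC-rich DNA through zinc fingers.

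The deposited values are normalized read counts. Only genes that the authors had called in this same comparison (their adjusted p at most 0.04999) are in the table, which is 11.8% of the 29845 genes they tested. Presence in the table and a call in it are thus no independent evidence. Reads in listed genes ran from 4017618 to 5602177 per library, and total depth is unknown. Fasting replicate 3 stood apart from the other fasting libraries by transcript length, and the members' values are given without it as well. Of the other genes named, those that deviated there by at least as much as JUNB kept their direction and call without it, with log2 fold changes of 4.18 for GADD45B, 3.31 for DUSP2, 4.74 for CHAC1, 1.46 for KRT18, -1.38 for ID3, -0.96 for MRTFB, 1.12 for BATF2, 1.23 for NRL and 1.07 for JUND. Of 13 colorectal epithelial markers KRT18 alone is listed (it rose, log2 fold change 1.72), and of 12 markers of other cell types 0 are listed, so the labelled cell type could not be checked from these genes.

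The promoters of the 4 members in which the core of the cAMP response element was found are shown first, because that element and the serum response motif are what this gene family is known for. Each run is the 250 bases before the start site, from RefSeq (GRCh38.p14), 5′ to 3′ on the gene's strand, and capitals mark the CArG box, the 6-base CRE core TGACGT on either strand (ACGTCA on the other) and TATAAA. FOS lies on the plus strand at chr14:75278578-75278827, FOSB on the plus strand at chr19:45467746-45467995, EGR1 on the plus strand at chr5:138465229-138465478, and EGR2, for the start site that lies farthest downstream of its 3 in that table, on the minus strand at chr10:62816367-62816616.
FOS: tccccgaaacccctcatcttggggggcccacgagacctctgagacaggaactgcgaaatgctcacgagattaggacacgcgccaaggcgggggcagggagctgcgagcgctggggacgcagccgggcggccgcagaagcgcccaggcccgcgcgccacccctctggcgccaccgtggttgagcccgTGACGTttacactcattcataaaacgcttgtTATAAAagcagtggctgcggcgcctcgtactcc
FOSB: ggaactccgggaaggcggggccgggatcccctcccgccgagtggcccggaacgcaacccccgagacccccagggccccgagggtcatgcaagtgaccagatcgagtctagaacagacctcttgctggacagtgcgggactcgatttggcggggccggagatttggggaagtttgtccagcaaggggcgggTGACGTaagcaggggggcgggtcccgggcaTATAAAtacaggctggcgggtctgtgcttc
EGR1: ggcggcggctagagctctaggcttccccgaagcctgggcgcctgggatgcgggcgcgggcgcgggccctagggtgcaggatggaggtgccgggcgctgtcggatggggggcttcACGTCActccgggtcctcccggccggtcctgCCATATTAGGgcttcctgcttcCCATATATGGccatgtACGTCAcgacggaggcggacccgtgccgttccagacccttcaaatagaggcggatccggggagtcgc
EGR2: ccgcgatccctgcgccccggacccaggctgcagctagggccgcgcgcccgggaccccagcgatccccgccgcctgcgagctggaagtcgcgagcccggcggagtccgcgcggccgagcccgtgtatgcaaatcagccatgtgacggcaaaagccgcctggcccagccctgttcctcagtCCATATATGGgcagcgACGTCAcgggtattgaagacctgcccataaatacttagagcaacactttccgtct

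The CRE core TGACGT was found in 4 of the 6 members searched (FOS, FOSB, EGR1 and EGR2, over 250 bases before to 50 after each start site), against 7.98% of 35116 promoter windows of this length. It starts at -64 in FOS and -60 in FOSB, and on the other strand at -67 in EGR1 and -55 in EGR2, with a further copy at -136 in EGR1. TATAAA, which starts at -33 in FOS, -30 in FOSB and -31 in JUNB, was in 4 of the 6, against 11.5% of windows, and the remaining copy starts at -230 from one of the ATF3 start sites. Within these windows a CArG box was in EGR1, where 2 copies start at -105 and -83, and in EGR2 at -71, against 1.29% of windows. In EGR1 and EGR2 the nearer CArG box and the CRE core are 6 bases apart. Bases more than 250 upstream were not searched, so a CArG box lying there in FOS or another member would not be seen. The full CRE TGACGTCA, the AP-1 site TGANTCA, the EGR sites GCGTGGGCG and GCGGGGGCG and the C/EBP-ATF site TTGCATCA were in none of the 6, against 1.85%, 7.71%, 0.795%, 5.07% and 0.866% of windows. Both strands were searched, the core is contained in the full CRE, and the core was added after the sequences had been seen. These matches describe letters in a window, and members with several start sites had more than 1 window searched. For ATF3 the windows begin at chr1:212565157 and chr1:212614768, and the stretch between them was not searched. A motif given as in none of the 6 may thus lie outside the windows. The EGR3 promoter was not analysed here.

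All 7 listed members were higher in fasting medium and passed the limma test (adjusted p under 0.05). Among listed genes 49.7% did so upward and 44.6% downward, and upward calls made up 5.85% of all genes the authors tested. Because the table was chosen on this contrast, nothing is read from the comparison, here or for the gene lists below. The lists were chosen with earlier results of these data known. In these bulk libraries more expressing cells and more RNA per cell cannot be told apart. The median log2 fold change of the 7 was 2.36, against 0.53 over all listed genes, and they ranged from 0.87 for JUNB to 4.67 for FOS. The groups did not overlap for any of the 7, which holds for 100% of listed genes. Over the listed genes 52.7% of calls were upward, and 33.6% when reads were scaled to the total of the listed genes, a scaling that shifts the median gene by -0.47 on the log2 scale. RLE scaling shifts it by 0.21. The direction of all 7 was the same under both scalings, though the JUNB call was lost under the former.

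**Figure D1:**
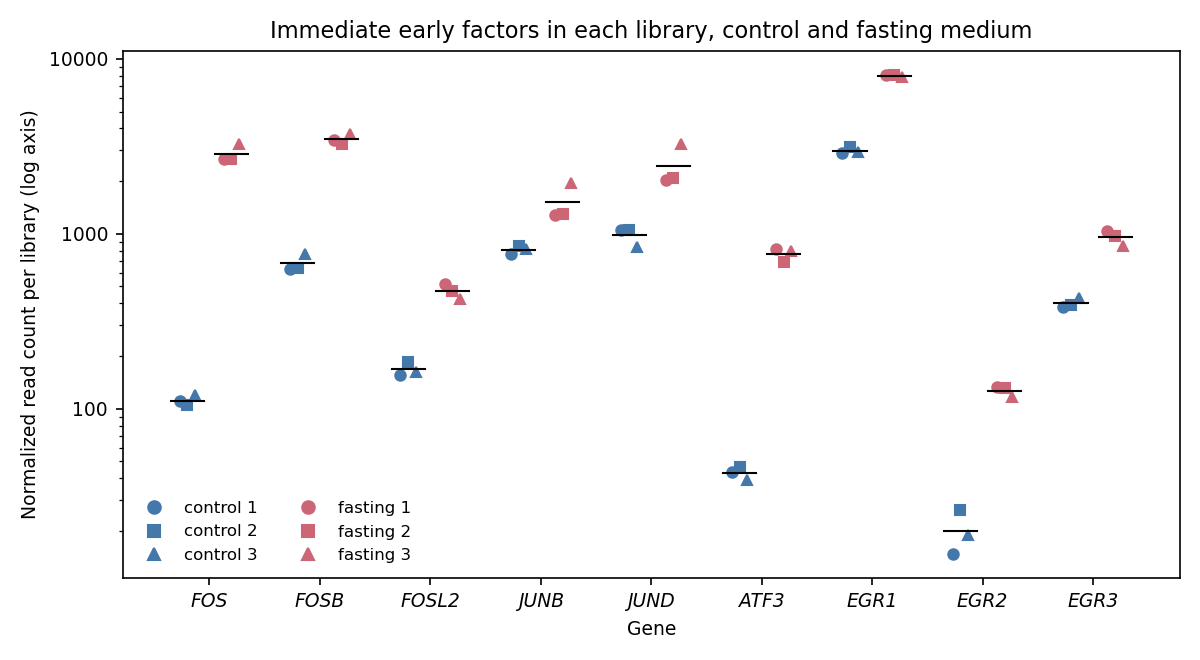
Normalized read counts on a log axis in each of 3 control and 3 fasting libraries for the 7 listed members and for FOSL2 and JUND, with marker shape giving the replicate and black bars the group mean. Every fasting value lies above every control value of the same gene, and fasting replicate 3 is high for JUNB (1955) and JUND (3264).

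Among the FOS family, FOS (ENSG00000170345) gave the largest change. Its normalized counts in replicates 1, 2 and 3 were 110.5, 104 and 119 with control medium and 2684, 2676 and 3264 with fasting medium. The control libraries lay close together and low, and fasting replicate 3 was the highest. The means were 111 ± 7.42 and 2875 ± 338 (SD, n = 3 each), a log2 fold change of 4.67 ± 0.11 (SE; limma, adjusted p = 2.16e-06), or 25.5-fold on the scale of log2(normalized count + 1) used for all fold changes here. FOS stood 14th among the 3511 listed genes by this value, and in the authors' deposited table it had the second smallest p of all listed genes (rank 2).

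FOSB (ENSG00000125740), whose product pairs with JUN proteins as FOS does, was already read more often in control medium. Its normalized counts were 627, 639 and 764 in control medium and 3425, 3239.6 and 3736 in fasting medium. Replicate 3 was the highest in both groups. The log2 fold change was 2.36 ± 0.11 (SE; limma, adjusted p = 2.03e-05), or 5.13-fold. FOSL2 (ENSG00000075426), which encodes the Fos-related antigen Fra-2 and was not among the 9 genes, had 156, 185 and 163 normalized counts in control medium and 514, 472 and 424 in fasting medium, a rise of 1.48 ± 0.12 log2 units (SE; limma, adjusted p = 2.00e-04).

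Of the JUN family, JUNB (ENSG00000171223), which forms AP-1 with FOS proteins, had the smallest change of the 7. Its normalized counts were 765, 847 and 823 in control medium and 1281, 1298 and 1955 in fasting medium, with a coefficient of variation of 25.4% in the fasting group against 5.17% in the controls. Fasting replicate 3 alone was far above the other fasting libraries. The log2 fold change was 0.87 ± 0.16 (SE; limma, adjusted p = 9.69e-03). The value was 0.67 once fasting replicate 3 was left out (limma, adjusted p = 1.04e-06). Without control replicate 1 the call was lost (0.83, adjusted p = 0.0542), as it was with total-read scaling (0.40, edgeR, adjusted p = 0.166) and without moderation of the variance (limma, adjusted p = 0.1396). In the authors' deposited table JUNB had a log2 fold change of 0.90 with an adjusted p of 0.0287, and ranked 3066 of the 3511 listed genes by p. The exons of JUNB overlap those of HOOK2 on the opposite strand. The labels' protocols give strand-specific libraries, but the sources used here do not say if reads were counted by strand. JUND (ENSG00000130522), the JUN family member that is present in most resting cells, showed the same high library, with 1045, 1056 and 835 normalized counts in control medium and 2017, 2072 and 3264 in fasting medium. It rose by 1.29 ± 0.19 log2 units (SE; limma, adjusted p = 3.10e-03), and by 1.07 without fasting replicate 3 (limma, adjusted p = 3.42e-07). Without moderation of the variance its adjusted p was 0.0833.

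**Figure D2:**
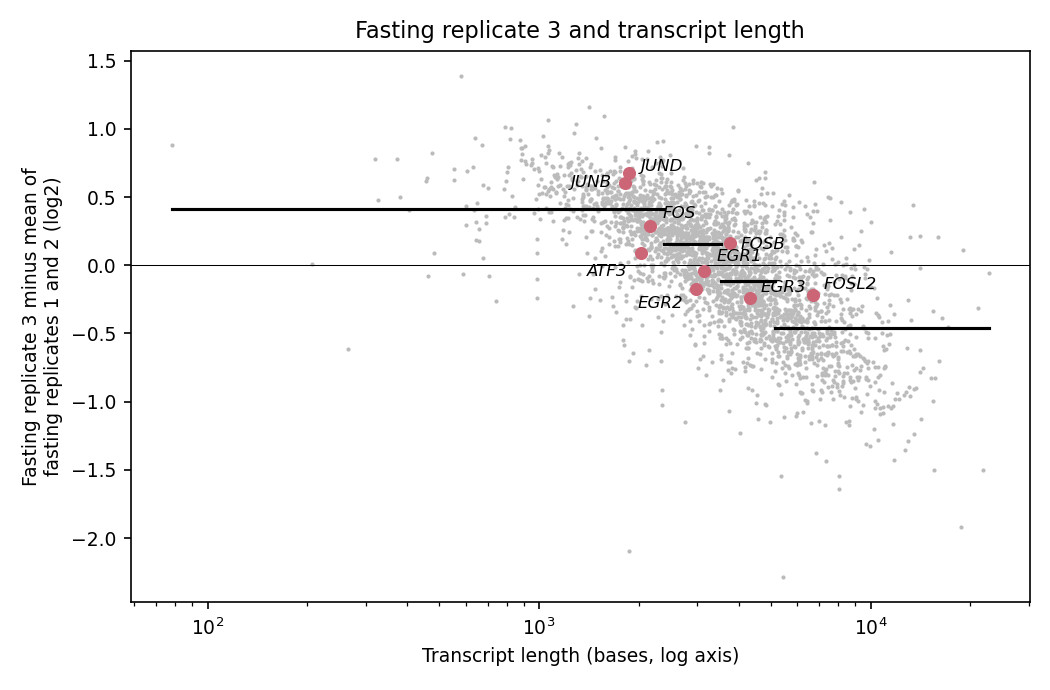
Difference between fasting replicate 3 and the mean of fasting replicates 1 and 2 (log2 scale) against transcript length in bases (log axis), for listed genes that reach a mean of 100 normalized counts in either medium (grey), with the members, FOSL2 and JUND in red and black lines for the median of each of 4 length bins. The median runs from 0.41 in the bin with the shortest transcripts to -0.46 in that with the longest, and JUNB (0.60) and JUND (0.67) lie above it.

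The members differed in how far fasting replicate 3 departed from the other fasting libraries. In fasting replicate 3 the difference was 0.60 log2 units for JUNB, with a longest coding transcript of 1820 bases, 0.28 for FOS (2158 bases) and 0.09 for ATF3 (2033 bases). It was 0.17 for FOSB (3775 bases), -0.05 for EGR1 (3138 bases), -0.17 for EGR2 (2968 bases) and -0.24 for EGR3 (4336 bases). FOSB, EGR1 and EGR2 thus went against the median of their length bin, which was 0.15 from 2385 to 3528 bases and -0.11 from 3531 to 5164 bases. Without fasting replicate 3 the log2 fold changes of FOS (4.58), FOSB (2.30), ATF3 (4.10), EGR1 (1.44), EGR2 (2.70) and EGR3 (1.33) each stayed within 0.1 of the values with all libraries.

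ATF3 (ENSG00000162772), a stress-induced factor that often represses its targets as a homodimer, had 43.4, 46.2 and 39.2 normalized counts in control medium and 821, 686 and 798 in fasting medium. The control values rest on 44 to 65 reads per library and the fasting values on 580 to 656. The gene rose by 4.13 ± 0.12 log2 units (SE; limma, adjusted p = 3.79e-06), or 17.5-fold. Factors of the integrated stress response were high in the same libraries. Of 20 such genes 13 are listed and all 13 rose (median log2 fold change 2.33), against 49.7% of all listed genes. The 13 include the mTORC1 inhibitor gene SESN2 (3.32), the phosphatase subunit gene PPP1R15A (3.47), which acts in recovery from eIF2α phosphorylation, and CHAC1 (4.94), which degrades glutathione.

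EGR1 (ENSG00000120738), a zinc finger factor downstream of ERK, had the most reads of the 7 in both media and the tightest replicates. Its normalized counts were 2907, 3122 and 2920.3 in control medium and 8067, 8118 and 7842 in fasting medium, with a coefficient of variation of 1.84% in the latter. The rise was 1.43 ± 0.08 log2 units (SE; limma, adjusted p = 3.49e-05), or 2.69-fold. EGR2 (ENSG00000122877), best known from myelinating Schwann cells and lymphocytes, was low, with 14.8, 26.3 and 18.9 normalized counts in control medium, from 15, 37 and 26 reads, and 133, 131 and 117 in fasting medium. Its log2 fold change of 2.64 ± 0.22 (SE; limma, adjusted p = 2.11e-04) was the largest of the family and the least precise of the 7. EGR3 (ENSG00000179388), which shares the zinc finger region with the other EGR proteins, had 379.7, 391 and 428 normalized counts in control medium and 1041, 974 and 851 in fasting medium. It rose by 1.25 ± 0.11 log2 units (SE; limma, adjusted p = 2.35e-04). Its exons overlap those of AC055854.1 on the opposite strand, where the same holds as for JUNB and HOOK2. EGR4 and the EGR corepressors NAB1 and NAB2 are not listed.

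Levels can be compared between genes only per length. On the scale of normalized counts per kilobase of the longest coding transcript, the order in control medium was EGR1 (951 ± 38.4), JUNB (446 ± 23.1), FOSB (179 ± 20.0), EGR3 (92.1 ± 5.85), FOS (51.6 ± 3.44), ATF3 (21.1 ± 1.72) and EGR2 (6.74 ± 1.96; SD, n = 3 each), and no neighbours in that order overlapped. In fasting medium it was EGR1 (2552 ± 46.8), FOS (1332 ± 156), FOSB (918 ± 66.5), JUNB (830.5 ± 211), ATF3 (378 ± 35.5), EGR3 (220.3 ± 22.2) and EGR2 (42.8 ± 2.98), and only FOSB and JUNB overlapped. FOS moved from the fifth place to the second, past EGR3, FOSB and JUNB. The ratio of FOS to FOSB on this scale was 0.308, 0.286 and 0.273 in the control libraries and 1.37, 1.44 and 1.53 in the fasting libraries. With the median length of the coding transcripts instead, a choice made after seeing the data, FOS lay below FOSB in control medium (134 against 202). In fasting medium FOS lay above every other member (3447, with EGR1 at 2552). Other places moved as well. EGR3 (257) stood above FOSB in control medium, and ATF3 (999) above JUNB (830) in fasting medium. There FOSB and ATF3 overlapped, as did ATF3 and JUNB, so the orders depend on the length chosen.

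**Figure D3:**
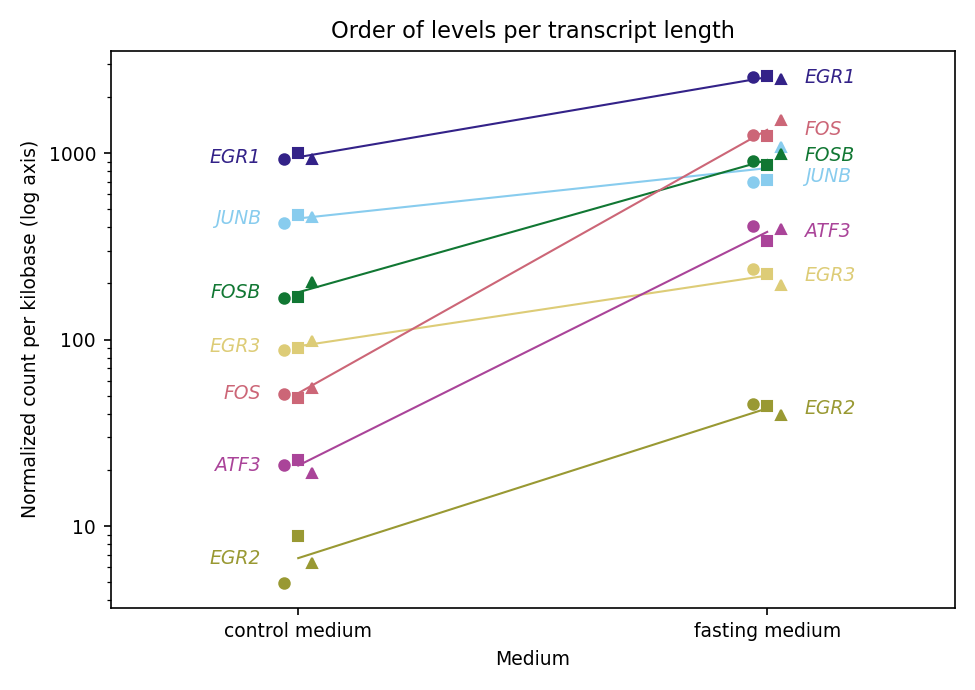
Normalized count per kilobase of the longest coding transcript on a log axis, for the 7 listed members in control and fasting medium, with 1 point per library and lines joining the group means. The line of FOS climbs from 51.6 to 1332 and crosses those of EGR3, FOSB and JUNB.

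Whether members rose by different factors was asked for each of 21 pairs with an exact two-sided permutation test over the 6 libraries, whose smallest possible p is 0.1. No pair could therefore pass the threshold (smallest adjusted p = 0.117). In 18 of the 21 pairs the difference between the 2 members' log2 values did not overlap between media. The same held for 74% of all pairs of listed genes and for 57% of pairs of genes called higher, and nothing is read from the count. FOS exceeded FOSB by 2.32 ± 0.07 and ATF3 by 0.54 ± 0.16 in log2 fold change (SE). EGR1 and EGR3 differed by 0.17 ± 0.10, FOSB and EGR2 by -0.28 ± 0.27, and JUNB and EGR3 by -0.38 ± 0.29 (SE), and in these 3 pairs the groups overlapped.

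The other AP-1 partners moved the same way where they are listed. Of 18 such genes 8 are listed, JUNB and the FOSL2 and JUND genes described above included. All 8 rose (median log2 fold change 1.39), against 49.7% of all listed genes. With total-read scaling 5 of the 8 were still called higher, and without moderation of the variance 4 were. The genes that lost the call kept their upward direction. MAFF (ENSG00000185022), a small MAF protein that lacks a transactivation domain, had the largest rise of the list (2.89 ± 0.13, SE; limma, adjusted p = 1.99e-05), from 199, 215 and 199.9 normalized counts to 1384, 1399 and 1839.8. JDP2, a repressor that dimerizes with JUN proteins, rose by 1.76, and the small MAF gene MAFG by 1.04. BATF2 (1.36, adjusted p = 0.0274) and NRL (1.43, adjusted p = 0.0141), a MAF-related factor of the retina, had under 50 normalized counts in every library. The BATF2 call was lost without control replicate 1 or 3 or fasting replicate 1 (limma, adjusted p = 0.0702 to 0.109) and that of NRL when control replicate 2 or 3 was omitted (limma, adjusted p = 0.0712 and 0.0747), and both were lost with total-read scaling (edgeR, adjusted p = 0.214 and 0.0889). JUN, FOSL1, ATF2, ATF7, BATF and BATF3 are among those not listed.

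Further immediate early genes were mostly higher, in a table where 49.7% of all genes were called higher and 44.6% lower. Of 24 other immediate early transcription factors 18 are listed, of which 17 rose and 1 fell (median 1.51). With total-read scaling 11 were still called higher. CSRNP1, a nuclear protein gene, rose from 333 ± 10.3 to 1944 ± 196 normalized counts (log2 fold change 2.54), and the orphan nuclear receptor NR4A1 from 159 ± 7.81 to 757 ± 18.1 (2.24; SD, n = 3 each). ID3, an inhibitor of helix-loop-helix factors, fell by 1.15 on the log2 scale (limma, adjusted p = 9.70e-03), a call lost without control replicate 3 (-1.02, limma, adjusted p = 0.0574). Of 34 immediate early genes that mostly do not encode transcription factors, 21 are listed and all 21 rose (median 1.91), with GADD45B, a growth arrest gene, going from 104 ± 6.47 to 2266 ± 627 normalized counts (SD, n = 3 each) and the small GTPase GEM rising by 2.09. MAFF stands in both the AP-1 list and that of transcription factors.

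The lists of upstream genes held calls in both directions, as did all listed genes (49.7% higher and 44.6% lower), and nothing is read from the split. Among 33 genes of the MAP kinase cascade 10 are listed, with 4 higher, 5 lower and 1 not called (median -0.68). The ERK substrate kinases RPS6KA1 (-1.06) and RPS6KA4 (-1.01) fell, while MAP3K14 (1.48), a kinase of the NF-kappaB pathway, rose. Of 20 EGF receptor ligands and growth factor receptors 7 are listed, 3 higher and 4 lower (median -0.56). HBEGF (1.52) and BTC (1.27), which encode ligands of the EGF receptor, rose, and ERBB3 (-1.76) fell. Genes called lower numbered 3 in the MAP kinase list and 2 in the receptor list under RLE scaling. Leaving out control replicate 1, 2 or 3 left 3 such calls in the former, and control replicate 2 or 3 left 2 in the latter. SRF, ELK1 and CREB1 are not listed. Of 19 SRF cofactors and CREB factors 3 are, CREM (1.42) and CREB5 (0.90) rising and MRTFB (-1.29), an actin-sensing SRF cofactor, falling. The MRTFB call was lost without control replicate 1 or 3 (limma, adjusted p = 0.0568 and 0.0553) and the CREB5 call with total-read scaling (0.47, edgeR, adjusted p = 0.425).

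Feedback genes of ERK signalling, which include phosphatases and Sprouty proteins that limit the kinases, rose in 8 of 10 listed (of 20, median 1.16). Among all listed genes 49.7% were called higher, which bears on this list and on the AP-1 targets below. DUSP2 went from 310.3 ± 15.3 to 3622 ± 927 normalized counts (3.51), DUSP1 from 187 ± 25.4 to 1338 ± 182 (2.84; SD, n = 3 each) and SPRY2 rose by 1.81. Cyclin D1 (CCND1, -1.44), a common readout of ERK and AP-1, fell, as did the ERK phosphatase gene DUSP7 (-0.67, named after its values were seen). Among 25 AP-1 target genes 12 are listed, with 11 higher and 1 lower, the latter again CCND1 (median 1.68). The collagenase MMP1 rose from 14.7 ± 0.92 to 347 ± 49.5 (4.47), the haem oxygenase gene HMOX1 by 5.50 and VEGFA by 1.84 log2 units. Of 16 genes of AU-rich mRNA turnover, which are not limited to factors that promote decay, 4 are listed. ZFP36 (1.60), which destabilizes AU-rich messages such as that of FOS, and the deadenylase gene CNOT8 (0.59, named to complete the 4) rose. HNRNPD (-1.13) and ELAVL1 (-0.64) fell.

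**Figure D4:**
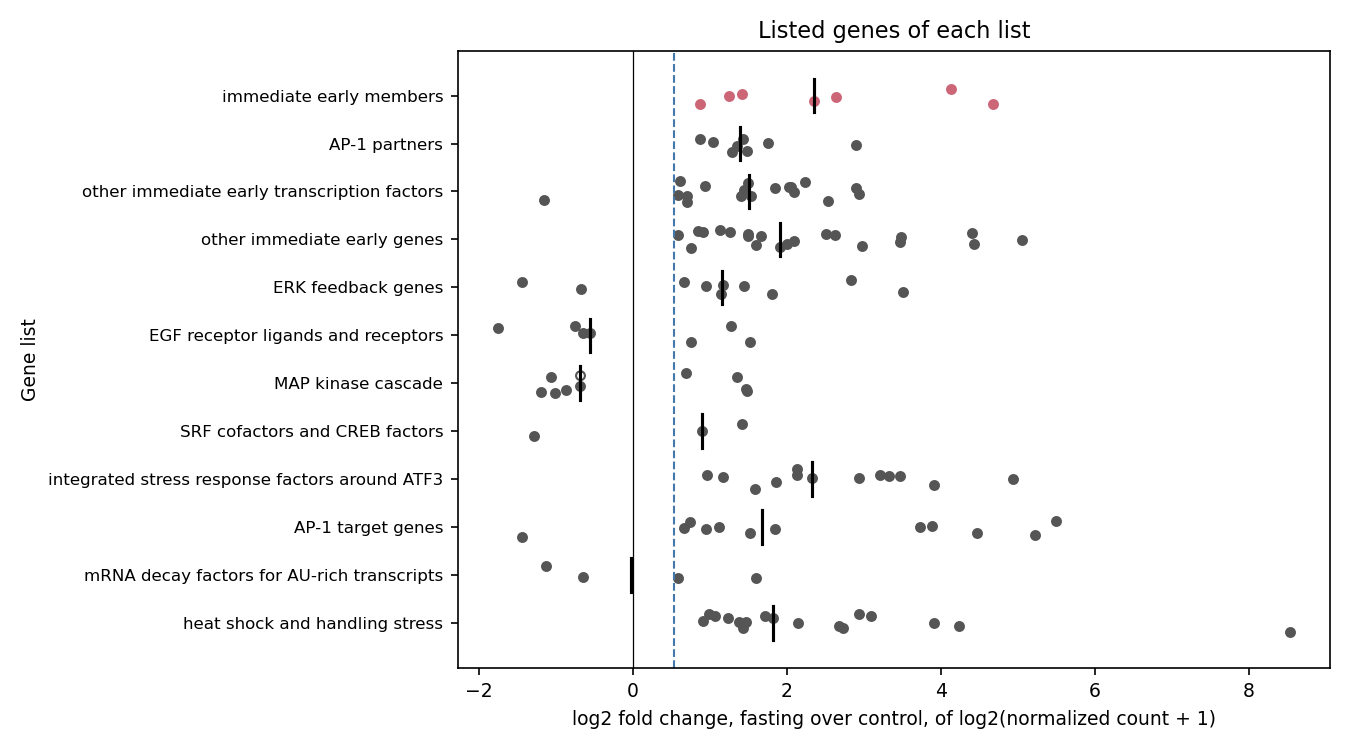
Log2 fold change (fasting over control, of log2(normalized count + 1)) of each listed gene of each list, with 1 point per gene, open where the gene did not pass the limma test, black bars for the list median and a dashed line for the median of all listed genes (0.53). The immediate early members (red, median 2.36) and the stress lists lie to the right. The receptor (-0.56), MAP kinase (-0.68) and AU-rich mRNA (-0.025) lists have medians below 0.

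Heat shock and handling stress genes were high in the same libraries as the members. All 17 genes of that list are listed and all 17 rose (median 1.82), against 49.7% of all listed genes. The summed normalized counts of the 17 were 148259 to 150375 in the control libraries and 450936 to 544781 in the fasting libraries. The members' own sum ran from 4848 to 5176 and from 17122 to 18563. HSPA6 rose by 8.54, HSPA1B by 3.91 and HSPH1 by 2.94 log2 units. The HSPA6 control values rest on 11, 20 and 13 reads, so the size of its change is uncertain. The part of stress or handling in the rise of FOS, ATF3 and EGR1, which respond to both, was not tested.

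Profiles over the 6 libraries were compared with those of 2890 other listed genes whose mean reached 100 normalized counts in either medium. The measure was the root mean square difference of centred log2 values, a description that rests mostly on the size of the change. MMP1 and CHAC1, named next, were low in control medium (means of 14.7 and 27.5). Nearest to FOS were MMP1 (0.15), GADD45B (0.19) and CHAC1 (0.21). Among those near FOSB were IFRD1 (0.09) and the RNase gene ZC3H12A (0.11). For ATF3 they were the chaperone genes HSPA1B (0.20) and HSPA1A (0.24), which are near-identical copies with uncertain read assignment, with MMP1 (0.23) between them. EGR1 was most like GTPBP2 (0.03), CCNG2 (0.05) and the proton pump subunit gene ATP6V1B2 (0.05).

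The members have few exons, a feature their choice did not use. In GENCODE 29 their longest coding transcripts have 1 exon (JUNB), 2 exons (EGR1, EGR2 and EGR3) or 4 exons (FOS, FOSB and ATF3), against a median of 9 and a lower quartile of 5 over 3071 listed protein-coding genes. Gene spans were 1820 bases for JUNB, 3457 for FOS, 3826 for EGR1, 5644 for EGR3 and 7185 for FOSB, against a median of 31923. They were 55444 bases for ATF3 and 107905 for EGR2, above that median. A span covers the whole GENCODE 29 gene record and depends on that annotation. The 250-base stretches before the 3 EGR2 start sites, from RefSeq, all lie within chr10:62816367-62819417. The AUUUA pentamer, the core of AU-rich decay elements, occurs 5 times in the 3′ untranslated part of FOS, 3 times in FOSB, ATF3 and EGR3, 2 times in JUNB and EGR2 and once in EGR1, and the median over the listed genes is 2. Per kilobase, FOS (6.20) and JUNB, with its 2 copies in 500 bases, lie above the upper quartile of 3.29 and ATF3 (2.45) above the median of 1.82. EGR2 (1.65), FOSB (1.39), EGR3 (1.07) and EGR1 (0.81) lie below that median.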

How the data were processed

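RNA of 6 RKO libraries was sequenced from strand-specific libraries, per the labels' protocols. DESeq 1.10.1, HTSeq 0.6.1 and UMI-tools 1.0.0 appear in the submitters' processing notes without their roles. Which aligner, genome build and gene models were used is not stated in these sources. The 6 sample columns deposited by the authors are a signal, the reads of a gene over that library's size factor. The authors' log2 fold changes, their p-values and adjusted p-values stand beside them in the deposited table. Values were whole multiples of 1 read for 100% of values (tolerance 0.01 read), with size factors of 0.727 to 1.41.

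limma 3.58.1 (mean-variance trend, empirical Bayes) was fitted to log2(value + 1) of all 3511 genes, which each reach a mean of 1 in either medium, with Benjamini-Hochberg adjustment over the 29845 genes the authors tested (unlisted genes at p = 1), two-sided, threshold 0.05. The moderation was estimated on genes selected for their difference. edgeR 4.0.16 and DESeq2 1.42.0 on the recovered reads were alternatives; edgeR called 3359 genes. All were run on simulated counts in which most genes did not differ. The deposited table holds only genes called as different, so that run does not bear on the calls here. Members and lists were chosen with earlier results of these data known. Named genes are the members, all AP-1 and EGR list genes, the 3 smallest adjusted p of each other list with the first opposite call, and the 3 nearest profiles, of which 1, the nearest to FOSB, is not reported here; KRT18 is the single listed marker. List genes were matched by Ensembl identifier through a table of gene names. The planned protein comparison was not made. Same-numbered control and fasting libraries did not deviate together, so replicate numbers were not treated as pairs.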

Additional observations from a re-analysis of the deposited data

How the results depend on the processing

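FOS, FOSB, ATF3, EGR1, EGR2 and EGR3 passed in the same direction under all 17 alternatives, with log2 fold changes of 4.21 to 4.88, 1.88 to 2.55, 3.68 to 4.35, 0.95 to 1.62, 2.16 to 2.85 and 0.79 to 1.46, and JUNB under 14 of 17 (0.40 to 1.09). Of the 52 genes followed under these alternatives, no gene changed direction. DUSP7 and CNOT8 were not among the 52. Without moderation of the variance 1981 listed genes passed, against 3312, and of the 7 members 6 did. Leaving out 1 library gave 2624 to 3509 genes and 6 or 7 members. With the replicate block 3293 genes and all 7 members passed, and the correlation of same-numbered deviations was 0.0315, 0.0265 and 0.0772 for replicates 1 to 3, so the numbers were not taken as pairs. Called genes numbered 3483 with DESeq2, 2613 when scaled to total reads and 2997 under RLE scaling. Counts of small lists moved by over 1.5 times in the cases given beside each. When the variance was not moderated, ID3 and MRTFB no longer passed (0 genes called lower in either list), and CREB5 did not either. Genes called lower then numbered 3 in the MAP kinase list and 2 in the receptor list. With total-read scaling CNOT8 no longer passed, which left 1 gene called higher among those of AU-rich mRNA turnover. EGR2 and ATF3 in control medium are limited by their few reads. In the control libraries the same holds for HSPA6 (11 to 20 reads), MMP1 (14 to 22), BTC (16 to 21) and CHAC1 (23 to 46).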
